A study of Mus musculus with 6 samples.

Results

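The genes described here make, break down and read out the cyclic nucleotides: the adenylyl cyclases, the phosphodiesterases, the anchoring proteins and subunits of protein kinase A (kinase A below), the exchange factors called Epac, and the transcription factors Creb1 and Crem. They were chosen by gene symbol, and 59 of 19938 genes on the arrays were members. The rule also names Prkaca and Rapgef4, which were not analysed here. RNA of type II alveolar epithelial cells, which make and secrete pulmonary surfactant, was measured on 3 Affymetrix mouse arrays labelled Gpr116 knockout and 3 labelled control. Mice of both groups carried 2 transgenes, SP-C-rtTA and (tetO)7CMV-Cre, and those of the first group carried Gpr116flx/flx, the conditional allele, besides. Cre is switched on through the surfactant protein C promoter and doxycycline. Deletion arises in cells in which that promoter is active under doxycycline, and cells descended from them carry it too. Each array held a pool of cells from 3 mice aged 8 weeks, obtained with collagenase and differential plating, and the tests below measure the spread between such pools.

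Cyclic AMP is made from ATP by adenylyl cyclases, which stimulatory G proteins switch on and inhibitory G proteins hold back. It acts by releasing the catalytic subunits of kinase A from their regulatory subunits and by opening Epac. Released catalytic subunits phosphorylate Creb1 in the nucleus, and phosphodiesterases end the signal. Anchoring proteins tie kinase A to membranes, centrosomes, mitochondria or cilia, so that the signal stays local. In type II cells, agents that raise cyclic AMP, such as beta-adrenergic agonists, stimulate surfactant secretion.

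Some facts of the arrays bear on all results. The probe set of Gpr116, now named Adgrf5, read 11.89, 11.78 and 11.87 in pools labelled knockout and 11.49, 11.53 and 11.51 in control pools. It was thus not lower where the receptor was labelled as deleted (log2 difference 0.34 ± 0.05, SE, n = 3 per group; limma adjusted p = 0.0119, and 0.0611, 0.0596 and 0.0648 without control 1, 2 or 3). Whether its probes lie in the floxed exons was not recorded in the files, which leaves the genotype unchecked, and every direction below rests on the labels. The labels call the mice sex-matched littermates. Xist read 11.79, 5.30 and 11.80 in pools labelled knockout and 5.40, 11.80 and 11.81 in control pools, and the Y-linked Kdm5d, Eif2s3y and Uty were high where Xist was low. Thus 1 pool of each group, knockout 2 and control 1, read as male, and the male pools did not share a replicate number. Correlations over all genes were 0.988 to 0.993 among the arrays labelled knockout and 0.996 to 0.998 among control arrays. The 10 type II cell markers, among them the surfactant protein genes, averaged 12.50 to 12.54 on log2 in pools labelled knockout and 12.43 to 12.45 in control pools. Of these, Sftpa1, Sftpc, Lyz2 and Slc34a2 read 12.94 to 13.20, where the highest value of an array was 13.32 to 13.43. Probe sets so near the top of the scale may not show a change. All 15 ciliated cell markers were lower in pools labelled knockout, with means of 8.77, 8.39 and 8.20 on knockout 1, 2 and 3 and 9.42, 9.35 and 9.41 on control 1, 2 and 3. Of 9 club cell markers 5 were lower, with means of 10.62, 10.12 and 10.87 in pools labelled knockout and 11.01, 10.81 and 10.81 in control pools. On knockout 3 the uncalled Bpifa1, Scgb3a1 and Muc5b read 11.74, 12.02 and 9.05, above every control pool. Of the 5 lower markers, Aldh1a1, Cldn10, Cyp2f2 and Gabrp were lowest on knockout 3, and Scgb3a2 was not. In RNA of many cells, fewer cells of a type and less RNA per cell cannot be told apart.

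Of the 59 members, 3 were higher, 4 were lower and 52 did not pass the limma test at an adjusted p of 0.05 over all genes. The higher ones were the phosphodiesterases Pde3a, Pde3b and Pde4b. The lower ones were the phosphodiesterase Pde8a, the anchoring proteins Akap14 and Akap17b, and the kinase A regulatory subunit Prkar2b. Called members made up 11.9% of the 59, against 8.49% of all genes (3.36% higher and 5.13% lower), and the shares were not compared by a test. The median difference of the members was 0.0033 on log2, and that of all genes was also 0.0033. The median absolute difference was 0.10 for the members and 0.08 for all genes. The pools labelled knockout lay wholly above the control pools for 10 members and wholly below for 9, where 14.8% and 12.8% of all genes did so (27.6% either way). Each of the 7 calls was lost when any 1 control array was left out. In those 3 fits 0 members passed limma and 12 to 14 members had an unadjusted p under 0.05. Of all genes, 2.98%, 2.58% and 2.3% were called without control 1, 2 and 3. With all arrays, 17 of the 59 members and 4402 of all 19938 genes had an unadjusted limma p under 0.05. Probe sets differ in brightness for reasons other than transcript number, so levels are compared below only within a gene.

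**Figure D1:**
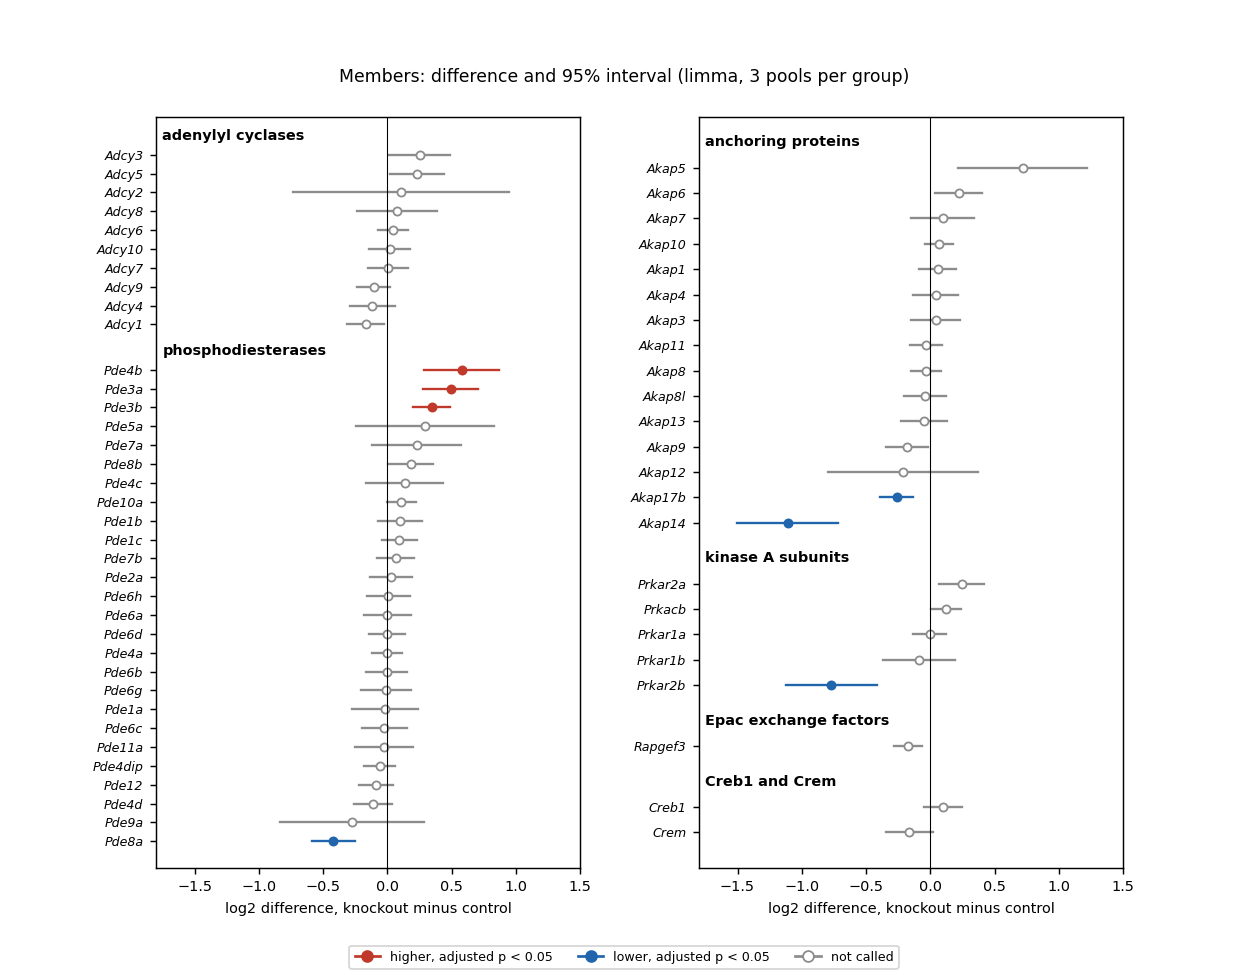
The log2 difference of each of the 59 members, arrays labelled knockout minus control arrays (x axis), is shown by family and sorted within it. Points are limma estimates, bars are 95% intervals with 3 pools per group, and filled points are the 3 members called higher (red) and the 4 called lower (blue).

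Of the 26 measured genes named as phosphodiesterases, 3 were higher, 1 was lower and 22 did not pass. Pde3a and Pde3b encode the enzymes that hydrolyse both cyclic nucleotides and are held back by cyclic GMP. Pde3a read 7.10, 7.32 and 7.08 in pools labelled knockout and 6.78, 6.70 and 6.54 in control pools. The groups did not overlap, and the level was 1.41-fold higher, a log2 difference of 0.49 ± 0.09 with a 95% interval of 0.28 to 0.71 (SE, n = 3 per group; limma adjusted p = 0.0207). Pde3b read 7.52, 7.55 and 7.49 in pools labelled knockout and 7.25, 7.21 and 7.07 in control pools. Its pools labelled knockout lay within 0.06 of each other, all above the controls, and the log2 difference was 0.34 ± 0.06 (interval 0.20 to 0.49; limma adjusted p = 0.0199). Of the cyclic AMP specific enzymes, Pde4b, an enzyme that the drug rolipram inhibits, read 7.29, 7.55 and 7.11 in pools labelled knockout and 6.91, 6.66 and 6.65 in control pools. The groups were again apart, by 0.58 ± 0.12 on log2 (interval 0.28 to 0.87), or 1.49-fold, with a limma adjusted p of 0.0351. Knockout 2 was highest of its group for each of these 3 genes, and control 1 was highest among controls. These 2 are the pools that read as male. Without knockout 2 the differences were 0.42, 0.33 and 0.46 for Pde3a, Pde3b and Pde4b, and all 3 were called (limma adjusted p = 0.0299, 0.0391 and 0.0432).

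Left-out arrays moved these calls without turning a direction. Without control 1, 2 and 3 the limma adjusted p was 0.0519, 0.0820 and 0.0846 for Pde3a, 0.0515, 0.0765 and 0.0718 for Pde3b, and 0.0611, 0.141 and 0.142 for Pde4b. It was 0.0549 for Pde3b without knockout 3 and 0.0521 for Pde4b without knockout 1. Leukocytes and smooth muscle cells express these enzymes too. Of 8 macrophage markers 1, Cd14, was higher, with means of 6.01 to 6.23 in pools labelled knockout and 5.93 to 6.04 in control pools. Cd14 stood at 1.07 on log2. Fabp4, Mrc1, Adgre1, Chil3 and Siglecf lay between 0.04 and 0.22, and Marco and Cd68 at -0.09 and -0.18. Of 7 neutrophil markers 1, Retnlg, was higher (means 5.17 to 5.32 labelled knockout and 5.08 to 5.16 control), and of 8 lymphocyte markers 0 passed limma (means 5.67 to 6.16 labelled knockout and 5.68 to 5.84 control). Of the lymphocyte markers 6 were highest of their group on knockout 1, as were 41.1% of all genes. Cd8a read 7.75 there and 6.10 and 6.07 on knockout 2 and 3. Of 9 fibroblast and smooth muscle markers 0 passed limma as well, with means of 9.08 to 9.47 in pools labelled knockout and 9.09 to 9.47 in control pools. These means join differences of both signs. The smooth muscle genes Acta2, Myh11 and Tagln stood at 0.42, 0.48 and 0.21 on log2, and Col3a1 at 0.13. Dcn, Lum and Pdgfra stood at -0.35, -0.36 and -0.42, and Col1a1 and Col1a2 at -0.02 and -0.07. The part of such cells in the rise of the 3 phosphodiesterases was not tested.

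Pde8a, a cyclic AMP specific enzyme of high affinity, was the 1 phosphodiesterase that fell. It read 7.31, 7.56 and 7.44 in pools labelled knockout and 7.86, 7.84 and 7.87 in control pools. The control pools agreed within 0.03, every pool labelled knockout lay below them, and the level was 1.34-fold lower (log2 difference -0.42 ± 0.07, interval -0.59 to -0.25; limma adjusted p = 0.0156). The adjusted p was 0.0539 without knockout 3 and 0.0698, 0.0714 and 0.0799 without control 1, 2 and 3. Its paralogue Pde8b read 9.15, 9.10 and 9.35 in pools labelled knockout and 9.01, 9.0 and 9.05 in control pools. There the groups were also apart, with the arrays labelled knockout above, but the difference of 0.18 ± 0.07 did not pass (adjusted p = 0.213). A difference between these paralogues was not tested.

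The other cyclic AMP specific phosphodiesterases did not pass. Pde4d gave -0.11 ± 0.06 and Pde4a -0.0033 ± 0.05 on log2, and Pde4c 0.13 ± 0.13. Pde7a, an enzyme of lymphocytes and other cells, read 10.13, 9.94 and 10.50 in pools labelled knockout and 9.81 to 10.08 in control pools, and the groups overlapped (0.23 ± 0.15). Pde7b gave 0.06 ± 0.06. Pde4d was 1 of 2 members with several probe sets, 3 each. Its other 2 probe sets gave differences of -0.15 ± 0.27 and 0.09 ± 0.17, so they disagreed in sign without either passing. The 3 probe sets of Akap11 gave -0.03, 0.02 and 0.01.

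Of the 8 enzymes that hydrolyse both nucleotides, only Pde3a and Pde3b passed. The calcium-calmodulin stimulated Pde1a, Pde1b and Pde1c stood at -0.02, 0.10 and 0.09 on log2, the cyclic GMP stimulated Pde2a at 0.03, Pde10a at 0.11 and Pde11a at -0.03. Of the 7 genes of cyclic GMP specific enzymes, 0 passed limma and 0 had an unadjusted p under 0.05, a level reached by 4402 of all 19938 genes. Pde5a, the target of sildenafil, had the largest positive difference among the uncalled phosphodiesterases and is described below with the members of wide spread. The subunits of the photoreceptor enzyme, Pde6a, Pde6b, Pde6c, Pde6g and Pde6h, gave differences between -0.023 and 0.0067 on log2. Another 3 genes carry the family name without hydrolysing cyclic nucleotides, namely Pde6d, a carrier of prenylated proteins, Pde12, an RNA-degrading enzyme, and Pde4dip, a centrosomal and Golgi protein. Pde6d read 10.35, 10.21 and 10.19 in pools labelled knockout and 10.26, 10.27 and 10.23 in control pools, a difference of -0.0033 ± 0.06 with overlapping groups, and Pde12 and Pde4dip stood at -0.09 and -0.06.

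**Figure D2:**
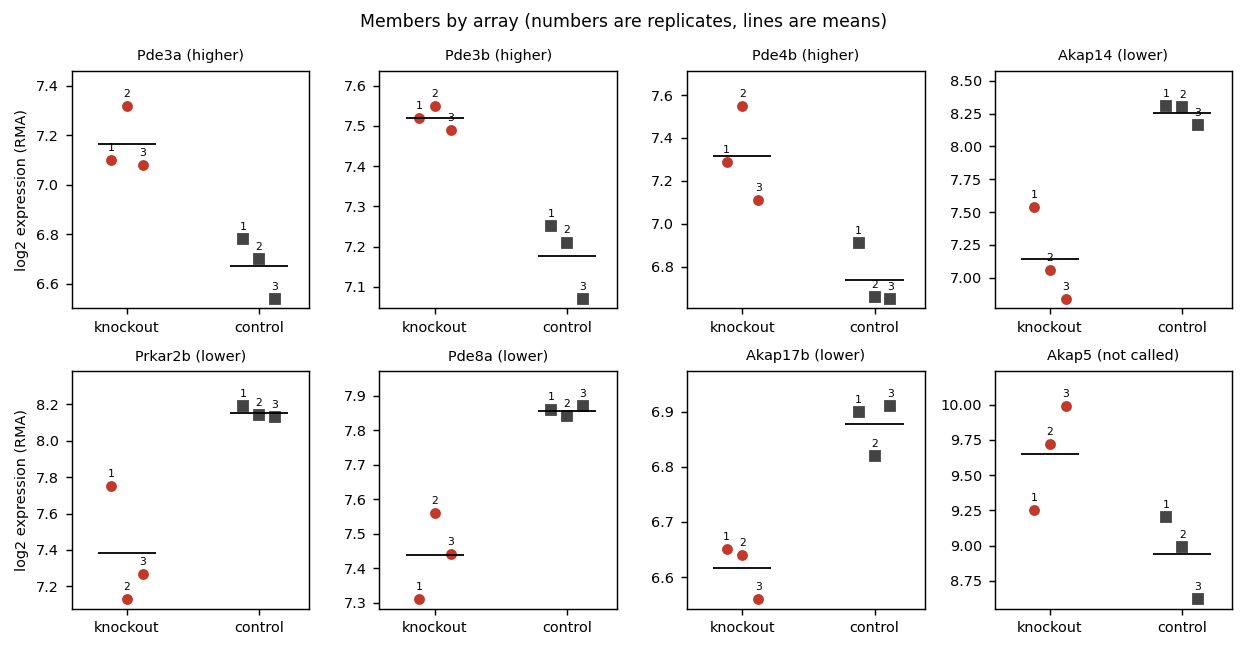
Log2 expression (y axis, RMA) of the 7 called members and of Akap5 is shown for each array, with the arrays labelled knockout at the left and the control arrays at the right of each panel. Numbers are replicates and lines are group means, each panel has its own scale, and the 2 groups do not overlap in any of the 8 panels.

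Akap14, the anchoring protein first known from the axoneme of human airway cilia, showed the largest difference among the 59 members. It read 7.54, 7.06 and 6.84 in pools labelled knockout and 8.31, 8.30 and 8.16 in control pools. The groups lay far apart and the level was 2.16-fold lower, a log2 difference of -1.11 ± 0.17 (interval -1.50 to -0.72; limma adjusted p = 0.0106, and 0.0544, 0.0562 and 0.0534 without control 1, 2 and 3). Beside it, the median difference of the 15 ciliated cell markers was -1.06. Akap14 ranked knockout 1 over 2 over 3, as did the mean of these markers, and so did 9 of the 59 members and 17% of all genes. The part of ciliated cell RNA in this result was not tested.

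Akap17b read 6.65, 6.64 and 6.56 in pools labelled knockout and 6.90, 6.82 and 6.91 in control pools. The groups were apart by a small step, -0.26 ± 0.05 on log2 or 1.20-fold lower (interval -0.39 to -0.13; limma adjusted p = 0.0316). With the replicate number as a block the adjusted p was 0.0705. It was 0.0943 without knockout 3 and 0.121, 0.0834 and 0.128 without control 1, 2 and 3. Akap14 and Akap17b both lie on chromosome X, and each group held 1 male pool.

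Akap5, which holds kinase A, calcineurin and protein kinase C at the plasma membrane and is also a marker of type I alveolar cells, had the largest difference of any uncalled member. It read 9.25, 9.72 and 9.99 in pools labelled knockout and 9.20, 8.99 and 8.62 in control pools. The groups did not overlap, but both spread widely and the difference of 0.72 ± 0.21 did not pass (interval 0.22 to 1.22; limma adjusted p = 0.0955). Without knockout 1 it passed, at 0.92 and an adjusted p of 0.0207. The 8 type I cell markers, with Akap5 among them, averaged 9.52, 9.80 and 9.89 in pools labelled knockout and 9.76, 9.58 and 9.48 in control pools. Of these 1, Ager, was higher (0.22 ± 0.05; limma adjusted p = 0.0363). The others did not pass and differed in sign. Rtkn2, Pdpn and Cav1 stood at 0.62, 0.43 and 0.08, and Aqp5, Clic5 and Hopx at -0.38, -0.38 and -0.26. The part of type I cell RNA was not tested.

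The remaining 12 anchoring proteins did not pass. Akap11, which binds kinase A and a glycogen synthase kinase, read 9.63, 9.58 and 9.68 in pools labelled knockout and 9.69, 9.69 and 9.61 in control pools, a difference of -0.03 ± 0.05. Akap13 gave -0.05 ± 0.07. Akap9, a scaffold of centrosome and Golgi, read 9.41, 9.22 and 9.39 in pools labelled knockout and 9.59, 9.47 and 9.50 in control pools. Those groups were apart, but -0.18 ± 0.07 did not pass (adjusted p = 0.185). Akap6, an anchor of the muscle cell nucleus, gave 0.22 ± 0.08 (adjusted p = 0.154). The mitochondrial Akap1 stood at 0.06, the nuclear Akap8 at -0.03, and the sperm sheath proteins Akap3 and Akap4 at 0.04 each. Akap7 stood at 0.10, Akap8l at -0.04 and Akap10 at 0.07, and Akap12 is described below.

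Of the 5 kinase A subunits, 1 was lower. Prkar2b, the type II beta regulatory subunit best known from brain and fat, read 7.75, 7.13 and 7.27 in pools labelled knockout and 8.19, 8.14 and 8.13 in control pools. The control pools lay within 0.06 of each other and above every pool labelled knockout, of which knockout 1 was nearest to them. The level was 1.71-fold lower, a log2 difference of -0.77 ± 0.15 (interval -1.12 to -0.42; limma adjusted p = 0.0249). The adjusted p was 0.0901 without knockout 3 and 0.0988, 0.0967 and 0.0997 without control 1, 2 and 3. Both Prkar2b and the ciliated cell marker mean were highest on knockout 1 of their group, as were 41.1% of all genes, but knockout 2 and 3 stood in opposite order in them. The part of ciliated cell RNA was not tested here either.

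Prkar2a, the type II alpha subunit, read 9.53, 9.49 and 9.73 in pools labelled knockout and 9.39, 9.30 and 9.33 in control pools. The groups were apart, with a difference of 0.24 ± 0.07 in the other direction from Prkar2b, and it did not pass (limma adjusted p = 0.105). The type I subunits stayed closer to 0, with Prkar1a at -0.01 ± 0.06 and Prkar1b at -0.09 ± 0.12. Prkacb, a catalytic subunit, read 9.67, 9.74 and 9.67 in pools labelled knockout and 9.59, 9.58 and 9.55 in control pools. Its groups did not overlap and its difference of 0.12 ± 0.05 did not pass (adjusted p = 0.211).

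Of the 10 adenylyl cyclases 0 passed limma. An unadjusted p under 0.05 was reached by 4402 of all 19938 genes and by 3 of the cyclases. Those were Adcy3, an enzyme of olfactory and other primary cilia, at 0.25 ± 0.10, the calcium-inhibited Adcy5 at 0.23 ± 0.09 and the calmodulin-stimulated Adcy1 at -0.17 ± 0.06 (adjusted p = 0.207, 0.184 and 0.161). Adcy3 read 7.45, 7.62 and 7.26 in pools labelled knockout and 7.30, 7.19 and 7.09 in control pools, and 1 control pool lay above the lowest of the other group. Adcy6, the close relative of Adcy5, read 8.94, 8.95 and 9.0 in pools labelled knockout and 8.93, 8.88 and 8.94 in control pools. Adcy7 read 9.15, 9.27 and 9.31 in pools labelled knockout and 9.22, 9.18 and 9.32 in control pools. For both the groups overlapped, with 95% intervals of -0.07 to 0.16 for Adcy6 and -0.15 to 0.16 for Adcy7. Adcy4 and Adcy9 stood at -0.12 and -0.11, and the soluble enzyme Adcy10, which answers to bicarbonate, at 0.02.

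Rapgef3, the Epac gene measured, read 6.42, 6.44 and 6.45 in pools labelled knockout and 6.59, 6.62 and 6.63 in control pools. The pools of each group agreed within 0.04 and the groups were apart, but the difference of -0.18 ± 0.05 did not pass (interval -0.29 to -0.07; limma adjusted p = 0.0657). Creb1 read 9.34, 9.38 and 9.45 in pools labelled knockout and 9.21, 9.29 and 9.38 in control pools, and the groups overlapped (0.10 ± 0.06; adjusted p = 0.445). Crem, whose inducible short form is a feedback repressor of cyclic AMP responses, read 6.90, 7.05 and 7.08 in pools labelled knockout and 7.05, 7.21 and 7.26 in control pools. Its groups overlapped too (-0.16 ± 0.08; adjusted p = 0.286). The short form was not measured apart.

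Promoter windows are shown for the 4 members that fell and for the 1 window of Pde4b, of its 4, that held a searched motif. They stand for 5 of the 7 called members, since no windows were at hand for Pde3a and Pde3b. The sequences are from RefSeq (GRCm38.p6), run 5′ to 3′ from 250 bases before to 50 after an annotated start, and capitals mark the letters TGACG (part of a cyclic AMP response element), GTTGCC (part of a site of RFX factors, regulators of ciliary genes) or GTAAACA (a forkhead site) on either strand. They lie at chrX:37168793-37169092, minus strand (Akap14), chrX:36645365-36645664, minus strand (Akap17b), chr12:32061228-32061527, minus strand (Prkar2b, the window with a motif of its 2), chr7:81213015-81213314, plus strand (Pde8a) and chr4:102421305-102421604, plus strand (Pde4b).
Akap14: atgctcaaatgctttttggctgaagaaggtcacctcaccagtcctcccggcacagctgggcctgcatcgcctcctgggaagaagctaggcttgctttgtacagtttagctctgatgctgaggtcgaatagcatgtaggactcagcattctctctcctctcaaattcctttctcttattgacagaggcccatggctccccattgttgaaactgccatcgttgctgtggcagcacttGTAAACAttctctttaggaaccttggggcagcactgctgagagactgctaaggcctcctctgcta
Akap17b: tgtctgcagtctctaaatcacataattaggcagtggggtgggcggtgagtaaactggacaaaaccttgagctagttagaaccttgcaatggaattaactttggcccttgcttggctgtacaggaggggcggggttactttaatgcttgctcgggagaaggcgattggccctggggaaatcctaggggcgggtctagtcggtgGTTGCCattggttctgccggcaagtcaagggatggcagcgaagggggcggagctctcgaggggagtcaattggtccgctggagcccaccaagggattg
Prkar2b: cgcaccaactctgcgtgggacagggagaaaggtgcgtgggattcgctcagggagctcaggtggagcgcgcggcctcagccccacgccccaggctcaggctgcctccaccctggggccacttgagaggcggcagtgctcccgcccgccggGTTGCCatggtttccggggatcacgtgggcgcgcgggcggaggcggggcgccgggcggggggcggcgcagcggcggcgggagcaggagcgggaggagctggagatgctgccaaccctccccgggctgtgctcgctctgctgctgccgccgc
Pde8a: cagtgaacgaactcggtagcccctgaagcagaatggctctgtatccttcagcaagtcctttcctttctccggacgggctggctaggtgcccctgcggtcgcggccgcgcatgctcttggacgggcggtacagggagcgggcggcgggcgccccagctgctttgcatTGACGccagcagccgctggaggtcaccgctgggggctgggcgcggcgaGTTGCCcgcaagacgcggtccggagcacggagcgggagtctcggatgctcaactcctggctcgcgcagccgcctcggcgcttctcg
Pde4b: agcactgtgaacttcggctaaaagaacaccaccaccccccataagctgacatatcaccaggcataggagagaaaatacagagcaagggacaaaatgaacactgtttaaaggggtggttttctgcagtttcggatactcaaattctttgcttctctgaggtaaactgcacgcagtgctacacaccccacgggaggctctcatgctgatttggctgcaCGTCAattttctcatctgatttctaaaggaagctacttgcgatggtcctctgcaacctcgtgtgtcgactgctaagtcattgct

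Each motif was searched on both strands, and 48 of the 59 members had 90 windows. The full element TGACGTCA was in 2 member windows (2.22%), against 1.79% of all 32851 windows, and in 0 of the 9 windows of the called members. Those 2 windows, both of Prkar1a, overlap and hold the same site, and per gene the share was 2.08% of members against 2.03% of all 27025 genes. The shorter TGACG, which lies within the full element, was in 18 member windows (20%), against 20.8% of all windows. Of the called members it was seen in Pde8a and Pde4b, in 2 of the 9 windows (22.2%). GTTGCC was in 15 member windows (16.7%), against 12.5% of all. Of the called members it was seen in Akap17b, Prkar2b and Pde8a, in 3 of the 9 windows (33.3%). GTAAACA was in 5 member windows (5.56%), against 3.65% of all. Of the called members it was seen in Akap14, in 1 of the 9 windows (11.1%). Per gene, with any of its windows, the shares were 33.3% of members against 23% of all genes for TGACG, 25% against 14.1% for GTTGCC and 10.4% against 4.05% for GTAAACA. The 48 members had more windows per gene than all genes, which raises a share counted per gene. A match is a run of letters and no measured site.

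Several uncalled members differed among the pools labelled knockout by more than the groups differed. The range of the 3 arrays labelled knockout was at least 0.5 on log2 for 9 of 59 members, or 15.3%, against 8.4% of all genes, and that of the control arrays for 2 members, against 0.953% of all genes. Besides Akap14, Prkar2b and Akap5 these were Adcy2, Adcy8, Akap12, Pde5a, Pde7a and Pde9a. Adcy8, a calcium-stimulated cyclase, read 5.09, 5.65 and 5.39 in pools labelled knockout and 5.35, 5.24 and 5.32 in control pools. Adcy2, a cyclase stimulated by G protein beta-gamma subunits, read 7.34, 8.93 and 8.03 in pools labelled knockout and 7.84, 8.08 and 8.06 in control pools. Knockout 2 stood above and knockout 1 below all controls, so that the mean difference was 0.11 ± 0.36 (limma adjusted p = 0.912). Pde5a read 8.38, 9.39 and 8.87 in pools labelled knockout and 8.62, 8.64 and 8.50 in control pools, with the same order of the pools labelled knockout and a difference of 0.29 ± 0.23 (adjusted p = 0.528).

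Akap12, a scaffold also called gravin, read 7.53, 8.58 and 7.78 in pools labelled knockout and 8.14, 8.29 and 8.10 in control pools. Pde9a, which hydrolyses cyclic GMP with high affinity, read 7.60, 8.47 and 7.52 in pools labelled knockout and 8.08, 8.24 and 8.10 in control pools. In both genes knockout 2 lay above every control and knockout 1 and 3 lay below. Without knockout 2 both were called lower, with differences of -0.52 ± 0.10 for Akap12 and -0.58 ± 0.07 for Pde9a (limma adjusted p = 0.0260 and 0.00966), against -0.21 ± 0.25 and -0.28 ± 0.24 with all arrays (adjusted p = 0.696 and 0.575). Pdgfra, the receptor that marks lung fibroblasts and stands on the fibroblast and smooth muscle list, read 9.12, 11.08 and 10.18 in pools labelled knockout and 10.23, 10.80 and 10.62 in control pools. It thus ranked the pools labelled knockout as Adcy2, Adcy8, Akap12 and Pde5a did, an order shared by 14.1% of all genes and by 37.8% of all genes of equally wide range. Of the 9 markers on its list 2, Pdgfra and Col1a2, had this order, and 4, Acta2, Dcn, Lum and Myh11, were highest on knockout 1. The mean of the list was 9.24, 9.47 and 9.08 on knockout 1, 2 and 3 and 9.47, 9.22 and 9.09 in control pools. The part of fibroblast RNA and of pool sex in these spreads was not tested.

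**Figure D3:**
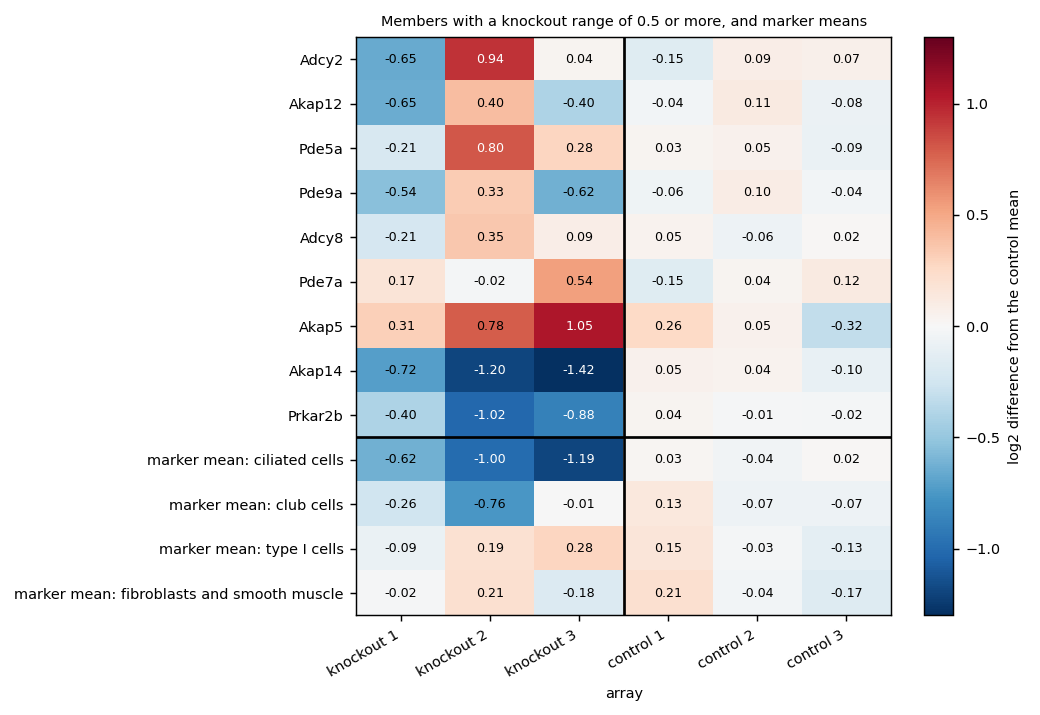
Rows are the 9 members whose arrays labelled knockout ranged over at least 0.5 on log2 and, below the line, mean levels of 4 marker lists; columns are arrays, labelled knockout at the left. Cell colour and number give the log2 difference from the mean of the 3 control arrays, and Adcy2, Akap12, Pde5a and Pde9a are above 0 on knockout 2 and below 0 on knockout 1.

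Other genes of the pathway were taken from 7 lists with 85 measured genes. Of these 4 were higher and 3 were lower, 8.24% in all against 8.49% of all genes. Calcrl, the receptor that pairs with Ramp proteins to bind adrenomedullin and calcitonin gene-related peptide, read 6.89, 6.89 and 6.90 in pools labelled knockout and 5.97, 6.13 and 5.99 in control pools. Every pool labelled knockout was above the controls, 1.82-fold on average (log2 difference 0.86 ± 0.06; limma adjusted p = 0.00264), and the call held in all 6 fits that left out 1 array. It was the 1 called gene of 16 receptors that act through cyclic AMP. Endothelial cells express Calcrl, and of 8 endothelial markers 1 was higher and 1 was lower. Pecam1 differed by 0.45 ± 0.07 and Kdr by -1.18 ± 0.20 (adjusted p = 0.0104 and 0.0152), and Cdh5 and Ptprb, at 0.62 ± 0.16 and 0.50 ± 0.12, did not pass (adjusted p = 0.0614 and 0.0515). The mean of the list was 6.59, 6.62 and 6.63 in pools labelled knockout and 6.64, 6.47 and 6.46 in control pools, and the part of endothelial RNA was not tested. Its partner Ramp2 stood at 0.11 ± 0.06 and the prostaglandin E receptor Ptger4 at 0.31 ± 0.12, and neither passed (adjusted p = 0.380 and 0.188).

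Abcc4, a membrane pump that exports cyclic AMP, read 7.98, 8.00 and 7.99 in pools labelled knockout and 7.48 on each control array. It was 1.42-fold higher (0.51 ± 0.05; limma adjusted p = 0.00389) and was also called in all 6 fits that left out 1 array. It was the 1 called gene among 18 other effectors, channels and exporters. Cftr, the chloride channel that kinase A opens, read 9.87, 9.53 and 9.73 in pools labelled knockout and 9.95, 10.14 and 9.98 in control pools, with all pools labelled knockout below the controls, but the difference did not pass (-0.31 ± 0.10; adjusted p = 0.110).

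Among 6 G protein subunits, 1 rose and 1 fell. Gnai3, which inhibits adenylyl cyclase, read 10.07, 9.89 and 10.14 in pools labelled knockout and 9.73, 9.67 and 9.63 in control pools, a rise of 0.36 ± 0.08 (limma adjusted p = 0.0328). Gnaz, also inhibitory, read 7.10, 6.88 and 6.83 in pools labelled knockout and 7.47, 7.33 and 7.49 in control pools, a difference of -0.49 ± 0.09 (adjusted p = 0.0173). The groups did not overlap for either gene. The Gnai3 adjusted p was 0.0602 and 0.0935 without knockout 1 or 3 and 0.0907, 0.128 and 0.134 without control 1, 2 and 3. That of Gnaz was 0.0583 without knockout 3 and 0.0797, 0.0505 and 0.0868 without control 1, 2 and 3. Gnaz ranked knockout 1 over 2 over 3, as did the ciliated cell marker mean and 17% of all genes. The part of ciliated cell RNA in the Gnaz difference was not tested.

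On the list of genes known as Creb1 targets in other cells, 1 of 16 was higher and 2 were lower. That was 18.8%, against 8.49% of all genes, and the shares were not compared by a test. The median difference was -0.23 on log2 against 0.0033 for all genes. Nfil3, a repressor of clock and immune genes, read 8.20, 8.33 and 8.31 in pools labelled knockout and 7.43, 7.51 and 7.70 in control pools (0.73 ± 0.08; limma adjusted p = 0.00493). Nr4a1, an orphan nuclear receptor, read 8.12, 8.25 and 8.28 in pools labelled knockout and 9.18, 8.86 and 8.90 in control pools (-0.76 ± 0.10; adjusted p = 0.00637). Nfil3 and Nr4a1 were called in all 6 fits that left out 1 array. Egr1, a zinc finger factor, read 9.95, 10.22 and 9.99 in pools labelled knockout and 10.64, 10.51 and 10.70 in control pools (-0.56 ± 0.09; adjusted p = 0.0123, and 0.0609 and 0.0685 without control 1 or 3). The groups did not overlap for any of these 3 genes, nor for 27.6% of all genes. Of the 16 differences 12 were negative, as were 9583 of those of all 19938 genes. Nr4a2 at -0.60 ± 0.15 and the kinase Sik1 at -0.39 ± 0.10 did not pass (adjusted p = 0.0556 and 0.0589), but with the replicate block both were called (0.0186 and 0.0279). Fos, Fosb and Dusp1 stood at -0.21, -0.25 and -0.25, and Per1 at -0.26. The part of Creb1 in these differences was not tested.

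The other 3 lists had 0 genes past limma. These were the 8 other kinase genes and kinase inhibitors, the 9 guanylyl cyclases and natriuretic receptors, and the 12 genes of the CREB family and coactivators. They had 2, 1 and 1 members at an unadjusted p under 0.05, a level reached by 4402 of all 19938 genes. Pkib, a kinase A inhibitor, stood at -0.31 ± 0.09 and Creb3l4 at -0.21 ± 0.05 (limma adjusted p = 0.0795 and 0.0522). The coactivators Crtc1, Crtc2 and Crtc3 gave -0.12, 0.01 and 0.09, and Crebbp and Ep300 gave -0.01 and -0.05.

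**Figure D4:**
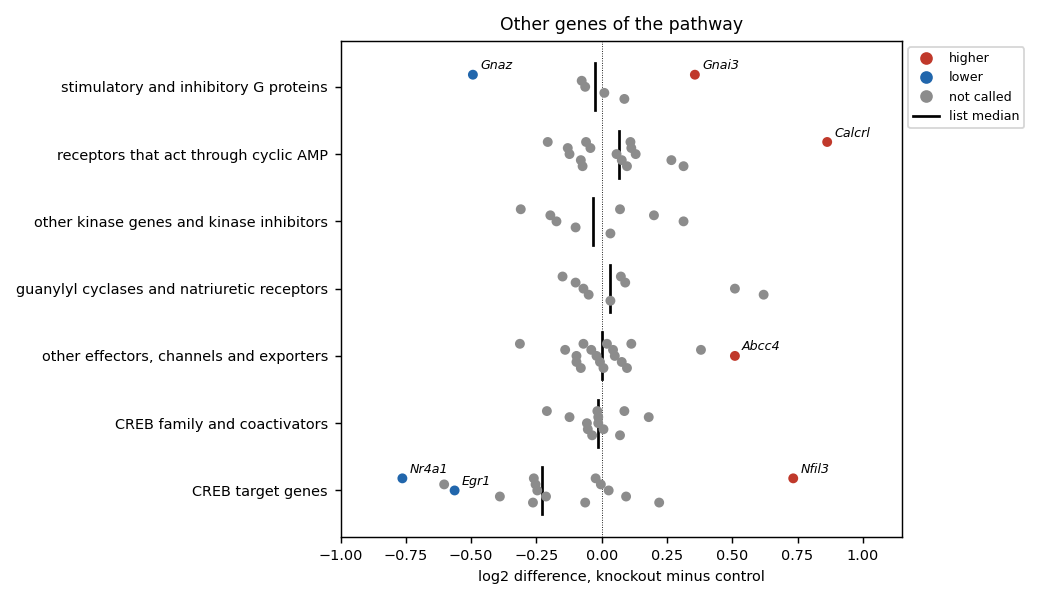
Each point is 1 gene of 7 lists of other genes of the pathway, at its log2 difference, arrays labelled knockout minus control arrays (x axis). Named coloured points are the 4 genes called higher and the 3 called lower, vertical bars are list medians, and the median of the Creb1 target list lies at -0.23.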

How the data were processed

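Each array held labelled RNA from a pool of 3 mice. The authors deposited log2 values that Expression Console (version 1.1) had summarised by RMA, per the submitters' processing notes. RMA makes array distributions alike, so a shift shared by most genes would be removed before deposit. Array medians were 6.77 to 6.81. The number of arrays limits precision. The genome build of the array design was not given in the sources used here.

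Probe sets with 1 gene symbol in the platform annotation (21789 of 35556; 1621 had several, 12146 none) were reduced to the brightest per gene over the 6 arrays, giving 19938 genes. Members matched RefSeq (GRCm38.p6) by Entrez identifier in 59 of 59 cases. Groups came from the array titles. The fit was limma 3.58.1 in R 4.3.3 (lmFit, eBayes without trend, two-sided) over all genes, with Benjamini-Hochberg adjustment, a threshold of 0.05 and no filter, after the script had been tested on simulated data. After group means were removed, same-numbered arrays correlated at 0.192, 0.103 and 0.111, so numbers were treated as pairs in an alternative fit. The first numbers of the titles were 9, 9 and 11 for pools labelled knockout and 8, 8 and 10 for control pools and are not explained, so the group and whatever they mark cannot be told apart.

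The members and lists were chosen with earlier results of these data known. Named by rule were all called members, in each family the 2 with the highest mean and the uncalled member with the largest difference, all kinase A subunits, Epac, Creb1 and Crem, and up to 4 called genes of each pathway list; other genes were picked after their values were seen. List genes without a probe set of 1 symbol were not analysed here. Alternatives left out each array, blocked on the replicate number, took the first title number as a random block, used an intensity trend, array weights, a second quantile normalization or genes at or above the median level, or averaged probe sets.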

Additional observations from a re-analysis of the deposited data

How the results depend on the processing

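With 3 pools per group, many calls were lost when 1 array was left out, whichever control array it was. Leaving out 1 array gave 0 to 3 members higher and 0 to 6 lower, and 3 to 6 pathway genes higher and 1 to 4 lower, against 3, 4, 4 and 3 with all arrays. Of all genes, those fits called 2.3% to 9.67%. With the first title number as a random block (consensus correlation -0.513) 6 members were higher and 7 lower, and 7 pathway genes higher and 10 lower. In that fit 18.5% of all genes were called, against 8.49% without the block. Array weights gave 5 members higher, adding Akap5 and Prkar2a, with 11.5% of all genes called. Of the 35 members at or above the median level 1 was higher, since Pde3a and Pde4b lie below it and were not tested. The called genes Akap17b, Calcrl and Gnaz also lie below it and were not tested in that fit. Of the genes kept there, 16.9% were called. With the replicate block 5 pathway genes were lower, with 7.94% of all genes called, and of the named calls that of Akap17b alone was lost. The intensity trend, the second quantile normalization and averaged probe sets kept the same 7 members called. Signs turned for 21 members under some alternative, of which 0 had been called. Among these, Adcy2 read -0.31 and Adcy8 -0.063 without knockout 2, against 0.11 and 0.073 with all arrays, and Akap12 read 0.0033 without knockout 1, against -0.21. In fits without 1 array the difference ran from -0.030 to 0.050 for Adcy7, -0.12 to 0.0067 for Akap13, -0.053 to 0.027 for Pde6d, -0.047 to 0.013 for Prkar1a and -0.19 to 0.0033 for Prkar1b. Adcy7 read -0.018 after quantile normalization, and Pde6d 0.0042 and Prkar1a 0.0023 with the title number block. The cause of these moves was not tested.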

Other observations

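Some genes of the pathway lists that were not called shared the order of the pools labelled knockout seen in Adcy2 and Pde5a; they were picked after their values were seen. Vipr2, a receptor for vasoactive intestinal peptide that stimulates adenylyl cyclase, read 6.96, 9.25 and 7.99 in pools labelled knockout and 7.87, 8.48 and 8.47 in control pools. Prkg2, a cyclic GMP dependent kinase, read 6.21, 8.42 and 7.18 in pools labelled knockout and 7.22, 7.69 and 7.49 in control pools. In both genes knockout 2 was the highest and knockout 1 the lowest of the 6 arrays. Gucy1a1 and Gucy1b1 encode the subunits of the nitric oxide receptor. Gucy1a1 read 7.56, 8.59 and 7.96 in pools labelled knockout and 7.60, 7.57 and 7.41 in control pools, and Gucy1b1 read 6.93, 7.98 and 7.28 in pools labelled knockout and 6.88, 6.73 and 6.72 in control pools. Every pool labelled knockout lay above the controls for Gucy1b1, by 0.62 ± 0.24 on average, and it did not pass limma (adjusted p = 0.187).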
